A study of Mus musculus with 6 samples.

Results

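Matrix metalloproteinases (MMPs) and the tissue inhibitors of metalloproteinases (TIMPs) were followed in aging mouse RPE/choroid, a preparation of the retinal pigment epithelium and the vessel-rich choroid below. The genes were chosen by name as the rows of the deposited table for Mmp2, Mmp3, Mmp9, Mmp12, Mmp13, Mmp14, Mmp19, Timp1, Timp2 and Timp3. All 10 were found among the 33924 genes of the table. Total RNA, depleted of ribosomal RNA and without poly(A) selection, was sequenced from 3 young and 3 aged samples of C57BL/6J mice. Young mice were 1 to 2 months old by the labels, and aged mice were 20 to 24 months old by the titles but 22 to 24 months old by the time label. The label for sex is male throughout, but in the study's methods both sexes and a somewhat older young group are described. No genotype or treatment separates the groups, and each library holds a pair of eyes whose retina, lens, iris and muscle had been dissected away before the RPE/choroid was scraped off.

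MMPs are zinc-dependent proteases that are made as inactive precursors and cut proteins of the extracellular matrix once activated. TIMPs bind the active site of MMPs and block it. In the eye, the matrix in question includes Bruch's membrane, the layered sheet of collagen and elastin between the RPE and the choroid, in which TIMP3 is known to accumulate and where TIMP3 mutations cause Sorsby fundus dystrophy, an inherited macular disease.

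For each gene, the table gives a baseMean, the mean of normalized counts over all 6 libraries, and 1 log2 fold change, its standard error (SE) and a DESeq2 adjusted p. Values per mouse were not analysed here, so replicate error enters only through the SE, whether young and aged libraries overlap cannot be seen, and depth per library is unknown here. Fold changes are given as aged over young, a direction inferred as described in the methods. Group means were worked out from baseMean and fold change and have no error of their own. In tissue RNA of this kind, fewer cells of a type and less RNA per cell cannot be told apart.

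Of the 10 genes, 9 had an adjusted p. By DESeq2, 7 were higher in aged mice (Mmp3, Mmp12, Mmp13, Mmp14, Mmp19, Timp1 and Timp2) and 0 were lower, where 21.2% of the 18636 genes tested passed, 11.3% as higher and 9.92% as lower. Timp3 and Mmp9 did not pass the threshold of 0.05. Mmp2 had a negative fold change but no p-value. Over the 9 genes the median log2 fold change was 0.93, and over all genes tested it was -0.01. The study shows selected senescence-associated secretory factors, a class to which MMPs belong, from the same samples, so the count is not independent evidence of a direction.

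**Figure D1:**
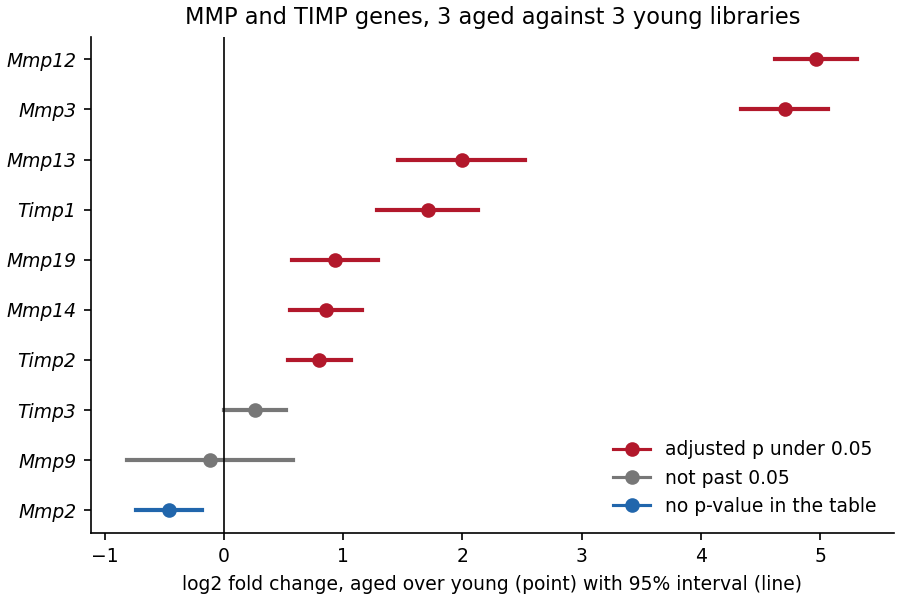
Log2 fold change of each of the 10 genes, aged over young (horizontal axis), with its 95% interval as a line, from 3 young and 3 aged libraries. Mmp12 and Mmp3 stand apart at 4.97 and 4.70, 5 further genes lie between 0.80 and 1.99, Timp3 and Mmp9 are not past the threshold, and Mmp2, which has no p-value, is the gene whose whole interval lies below 0.

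Mmp12 and Mmp3 changed most. Mmp12, also called macrophage elastase, cuts elastin. Its worked-out mean was 84.3 normalized counts in young and 2635 in aged mice, a 31.2-fold difference (log2 fold change 4.97, SE 0.18, 95% interval 4.62 to 5.31, DESeq2 adjusted p 1.71e-171). Mmp3, stromelysin-1, has a broad range of substrates and can activate other MMP precursors. Its worked-out mean was 543 in young and 14163 in aged mice, a 26.1-fold difference (log2 fold change 4.70, SE 0.19, 95% interval 4.34 to 5.07, DESeq2 adjusted p 7.77e-138). The intervals of Mmp12 and Mmp3 overlap each other and lie above those of the other 8 genes. Among all genes tested, Mmp12 had the 9th largest rise and Mmp3 the 11th.

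Mmp13 and Timp1 rose less. Mmp13, collagenase-3, cuts fibrillar collagen and is the main interstitial collagenase of rodents. From 33.4 normalized counts in young mice it reached 133 in aged mice (log2 fold change 1.99, SE 0.27, DESeq2 adjusted p 1.38e-11). Timp1, an inducible and soluble inhibitor, went from 88.9 to 291 (log2 fold change 1.71, SE 0.22, DESeq2 adjusted p 1.38e-13). The interval of Mmp13, 1.46 to 2.53, and that of Timp1, 1.29 to 2.13, overlap.

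Mmp14, Mmp19 and Timp2 rose by less than 1 on the log2 scale. Mmp14, a membrane-anchored MMP that cuts collagen at the cell surface and activates the Mmp2 precursor, went from 1851 to 3352 normalized counts (log2 fold change 0.86, SE 0.15, DESeq2 adjusted p 7.33e-07). Mmp19, a secreted MMP, went from 289 to 551 (log2 fold change 0.93, SE 0.18, DESeq2 adjusted p 8.63e-06). Timp2, which inhibits MMPs and also forms the complex through which Mmp14 activates Mmp2, went from 5851 to 10178 (log2 fold change 0.80, SE 0.14, DESeq2 adjusted p 1.07e-07). The 95% intervals of these genes overlap, from 0.53 at the lowest bound to 1.29 at the highest. If a log2 fold change of 1 or more in size was also required, these 3 calls were lost and 4 of the 10 genes were higher, where 8.27% of all genes tested passed, 3.65% as higher.

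Mmp2, gelatinase A, which cuts denatured collagen and the type IV collagen of basement membranes, went the other way. Its worked-out mean was 3310 normalized counts in young and 2404 in aged mice, a log2 fold change of -0.46 (SE 0.14, 95% interval -0.73 to -0.19). The table gives it no p-value, which DESeq2 does where the count of 1 library lies far from the rest, and 160 of 26681 genes with a fold change were left without one. Which library this was cannot be seen in the table. A p worked out from the Wald score of Mmp2 and adjusted with all genes tested was 0.00755 (DESeq2 columns), but that step sets aside the reason for the missing value.

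Mmp9, gelatinase B, is stored in neutrophils and made by osteoclasts and macrophages. It had 53.8 normalized counts in young and 49.6 in aged mice (log2 fold change -0.12, SE 0.35, DESeq2 adjusted p 0.861). Its interval, -0.81 to 0.58, was the widest of the 10. Among the 1712 genes tested within 1.5 times its baseMean, the median SE was 0.32 and the smallest absolute log2 fold change that was called was 0.65. The SE of Mmp9 was larger than that median, so changes of 0.65 or less in size could have been missed. A rise as large as that of Mmp13 lies outside the interval.

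Timp3 had the highest baseMean of the 10 genes. Its worked-out mean was 37481 normalized counts in young and 44895 in aged mice (log2 fold change 0.26, SE 0.13, 95% interval 0.0034 to 0.52, unadjusted p 0.0470 and adjusted p 0.147 by DESeq2). The upper bound of this interval is below the lower bounds for Timp1, Timp2, Mmp14 and Mmp19. Exons of Timp3 overlap those of Syn3 on the opposite strand, and a share of 0.781 of the 31-base words of its transcripts occurs in no other gene. Syn3 had a baseMean of 104 and Timp3 one of 41188, both after Sailfish had divided shared reads by estimation, and the part of Syn3 in the value of Timp3 was not tested.

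**Figure D2:**
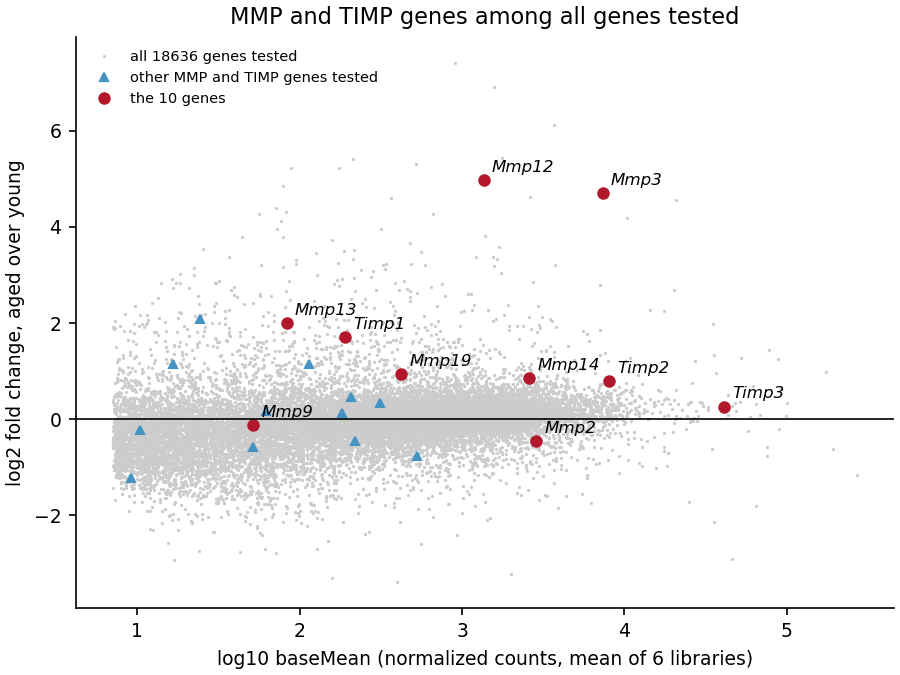
Log2 fold change, aged over young, against log10 baseMean for the 18636 genes tested (grey), the other MMP and TIMP genes tested (triangles) and the 10 genes (labelled circles, Mmp2 included although it has no p-value). Mmp12 and Mmp3 lie at the upper edge of genes of their abundance, and Timp3 lies at the far right near 0.

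Levels were compared between genes per length, as normalized counts per kb of the main annotated transcript. This scale, and the orders and shares drawn from it, take baseMean as not yet divided by length, which is not settled. On this scale the order in young mice was Timp3 at 7937, Timp2 at 1577, Mmp2 at 1075, Mmp14 at 713, Mmp3 at 302, Timp1 at 101, Mmp19 at 85.0, Mmp12 at 23.4, Mmp9 at 16.9 and Mmp13 at 12.5. In aged mice it was Timp3 at 9508, Mmp3 at 7864, Timp2 at 2744, Mmp14 at 1291, Mmp2 at 781, Mmp12 at 730, Timp1 at 329, Mmp19 at 162, Mmp13 at 49.7 and Mmp9 at 15.6. Mmp3 was thus the fifth in young mice and the second in aged mice. The order depends on the length used. With all annotated exons of a gene as its length, Mmp3 was again the fifth in young mice but at the top in aged mice, at 7864 against 5513 for Timp3, and aged Mmp14 at 562 was below aged Mmp2 at 713, not above it. Mmp12 then stood at 11.7 in young and 364 in aged mice. Whether neighbours in either order differ cannot be tested, as the worked-out means have no error.

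The makeup of the MMP transcripts turned over with age. Summed over the 7 MMP genes, the level per kb was 2228 in young and 10894 in aged mice, 4.89 times as much. Mmp2 held 48.3% and Mmp14 32.0% of the young sum, but 7.17% and 11.9% of the aged sum. Mmp2 has no p-value, so its mean, and with it these shares, may rest on a library whose count lies far from the rest. With all annotated exons as length, the share of Mmp14 was 18.1% in young and 5.78% in aged mice, and that of Mmp2 57.2% and 7.33%. Mmp3 held 13.5% in young and 72.2% in aged mice. With the fold change of Mmp3 set to either bound of its 95% interval, its young share ran from 10.9% to 16.6%. The aged share hardly depends on the fold change by construction, because the mean over all libraries is held fixed, and with all annotated exons as length it was 80.9%. Without Mmp3 the sum was 1926 in young and 3030 in aged mice, a ratio of 1.57.

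The makeup of the inhibitors shifted less. The sum of the 3 TIMP genes was 9616 normalized counts per kb in young and 12581 in aged mice, a ratio of 1.31, and was not tested. Timp3, which did not pass the threshold, was 7937 of the young and 9508 of the aged sum. Timp3 held 82.5% of that sum in young and 75.6% in aged mice, Timp2 16.4% and 21.8%, and Timp1 1.05% and 2.62%. With all annotated exons as length, Timp1 held 1.61% and 3.87%.

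**Figure D3:**
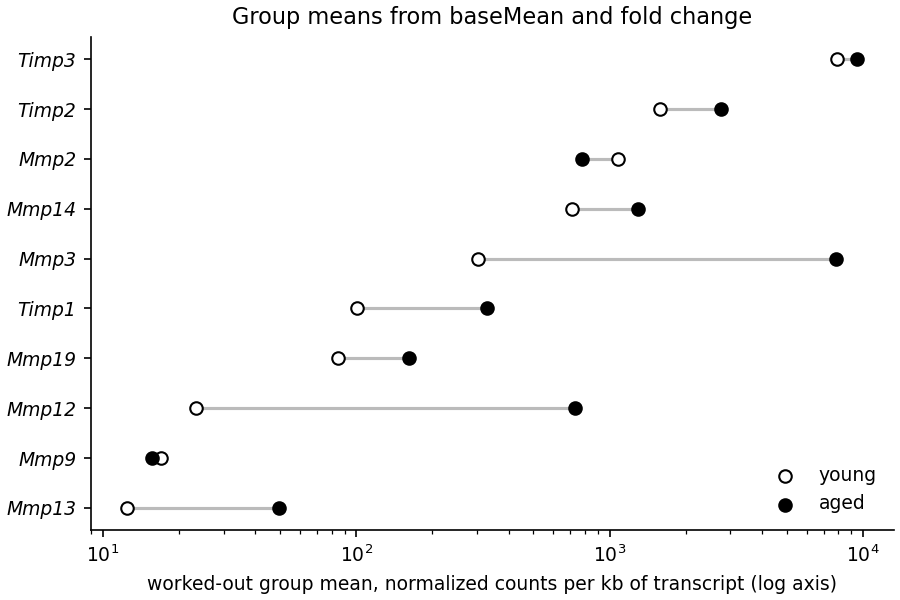
Worked-out group means of the 10 genes in normalized counts per kb of transcript (log axis), young as open and aged as filled circles, ordered by the young level. Mmp3 crosses from 302 to 7864 and ends beside Timp3, while the aged means of Mmp2, which has no p-value, and of Mmp9, which did not pass the threshold, lie to the left of the young ones. The means carry no error bars because they were worked out from 1 mean and 1 fold change per gene.

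Mmp13, Mmp12 and Mmp3 are neighbours in the genome. They belong to a run of 10 MMP genes on chromosome 9, from 7272514 to 7699585 (GRCm38), 427 kb long. Mmp13 lies on the plus strand at 7272514 to 7283331, Mmp12 at 7344381 to 7369499 and Mmp3 at 7445822 to 7455975, each with 10 exons in its main transcript. Of the 10 genes of the run, 5 were tested and all 5 were higher in aged mice, where 11.3% of all genes tested were higher. The other 2 of these are Mmp8, the neutrophil collagenase, with a log2 fold change of 2.08 (SE 0.39, DESeq2 adjusted p 2.27e-06) at a baseMean of 24.1, and Mmp27 with 1.16 (SE 0.41, DESeq2 adjusted p 0.0290) at a baseMean of 16.5. A gene this low passes the filter more easily when it is high in 1 group, so the count over tested genes is a description. Mmp1a and Mmp1b are listed at a baseMean of 0, and Mmp7, Mmp10 and Mmp20 at 0.153, 0.700 and 0.380, too low for an adjusted p.

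The genes around this run did not share its rise. Within 1000 kb on either side, 9 further genes were tested. Their log2 fold changes ran from -0.23 to 0.39 with a median of -0.04, and 1 of the 9, Tmem123, passed the threshold at 0.38 (SE 0.12, DESeq2 adjusted p 0.00833). Reads of Mmp3 and Mmp12 could partly fit relatives in the run: a share of 0.854 of the 31-base words of Mmp3 and of 0.934 of those of Mmp12 occurs in no other gene, and all words of Mmp13 are its own. The relatives concerned, Mmp10 for Mmp3 and Mmp1b for Mmp12, stood at or near 0, again after shared reads had been assigned. Words are also shared by Gm15242 and Gm15244 with Mmp3, and by Cpa6 and Gm37086 with Mmp12, and the levels of these genes were not examined. Exons of Mmp12 overlap those of Mmp1b on the opposite strand.

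**Figure D4:**
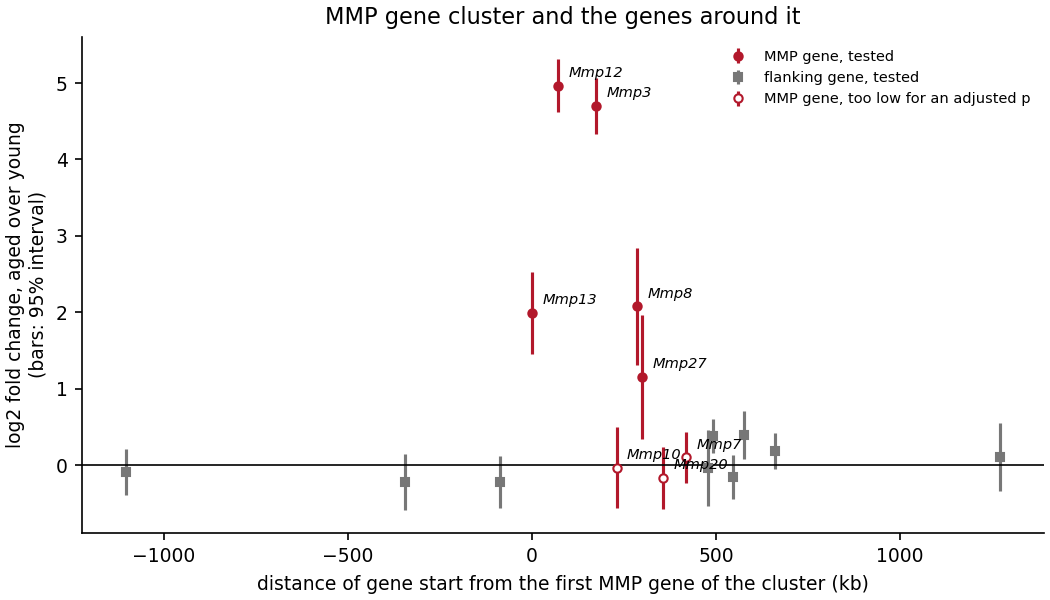
Log2 fold change, aged over young, of genes in and around the MMP run on chromosome 9 against the distance of each gene's start from the start of Mmp13 in kb, with 95% intervals as bars. The 5 tested MMP genes (filled circles) lie between 1.16 and 4.97, and the 9 flanking genes (squares) between -0.23 and 0.39, beside the 3 MMP genes too low for an adjusted p (open circles).

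Promoters of the run were read because members that lie together moved together. The letters TGANTCA, the element bound by AP-1 (dimers of Fos and Jun proteins), were searched in the 250 bases upstream of each RefSeq start (GRCm38.p6), and since TGANTCA is its own reverse complement, a search of one strand covers both. The match is present in 6.75% of all 32851 promoters and in a promoter of 7.82% of the 27025 genes that have one. Promoters were at hand for 7 of the 10 genes. Mmp3, Mmp12 and Mmp13 hold a match, and Timp1, Timp2, Timp3 and Mmp14 do not. Mmp19, Mmp2 and Mmp9 have no entry. The upstream sequences of the genes with a match are shown 5′ to 3′ with the AP-1 letters in capitals, each ending at the base before the start.
Mmp3, chr9:7445572-7445821, plus strand: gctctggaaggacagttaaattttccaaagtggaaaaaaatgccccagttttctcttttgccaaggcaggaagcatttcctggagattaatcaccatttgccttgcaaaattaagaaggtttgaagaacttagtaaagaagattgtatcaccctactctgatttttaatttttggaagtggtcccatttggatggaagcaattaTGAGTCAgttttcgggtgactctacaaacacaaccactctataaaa
Mmp12, chr9:7347124-7347373, plus strand: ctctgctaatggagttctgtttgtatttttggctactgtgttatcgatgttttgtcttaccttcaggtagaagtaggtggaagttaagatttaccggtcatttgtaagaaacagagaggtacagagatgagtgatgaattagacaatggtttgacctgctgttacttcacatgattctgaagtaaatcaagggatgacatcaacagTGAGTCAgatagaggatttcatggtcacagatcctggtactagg
Mmp13, chr9:7272264-7272513, plus strand: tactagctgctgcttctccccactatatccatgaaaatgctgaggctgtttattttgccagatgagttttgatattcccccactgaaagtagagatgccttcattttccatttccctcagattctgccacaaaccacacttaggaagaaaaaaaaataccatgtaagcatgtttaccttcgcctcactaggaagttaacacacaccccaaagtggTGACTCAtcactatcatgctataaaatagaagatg

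The match begins 46 bases upstream of the start in Mmp3, 44 in Mmp12 and 35 in Mmp13. Mmp12 has a second RefSeq start further upstream, whose promoter holds no match. The letters of a TATA box, TATAAA on the plus strand of the gene, follow the AP-1 letters in Mmp3 and Mmp13. They are present in 7.59% of all promoters and in a promoter of 8.94% of genes. In Mmp3 they begin 7 bases upstream of the start and in Mmp13 16, against 29 in Mmp10 and 28 in Mmp1a. Whether they act as a TATA box was not tested. The same AP-1 letters also stand before genes of the run that are at or near 0, as in these 2 windows of 27 bases, shown for contrast.
Mmp10, chr9:7502269-7502295, plus strand: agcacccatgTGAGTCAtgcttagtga
Mmp1a, chr9:7464058-7464084, plus strand: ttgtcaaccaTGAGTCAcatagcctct

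In all, 8 of the 10 genes of the run hold the match in a promoter, and Mmp8 and Mmp27, which were higher in aged mice, do not. A match is only a run of letters and says nothing of binding.

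The other 7 genes lie elsewhere in the genome. On GRCm38 they are Mmp2 on chromosome 8 (92827291 to 92853420), Mmp9 on chromosome 2 (164940780 to 164955850), Mmp14 on chromosome 14 (54431612 to 54445364), Mmp19 on chromosome 10 (128790910 to 128800824), Timp1 on chromosome X (20870166 to 20874735), Timp2 on chromosome 11 (118301069 to 118355740) and Timp3 on chromosome 10 (86300372 to 86349506). Timp1 and Timp3 each lie within a synapsin gene, Syn1 and Syn3. Exons of Mmp19 overlap antisense exons of Tmem198b and Gm47093, and a share of 0.733 of its words occurs in no other gene, the lowest of the 10, so its value is the least certain in this respect.

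The rest of both families moved in both directions. Of 17 further MMP and TIMP genes, 12 were tested, 3 were higher and 2 were lower in aged mice, and the median log2 fold change was 0.15. Among all genes tested, 11.3% passed as higher and 9.92% as lower. Timp4, the remaining inhibitor, rose by 1.16 (SE 0.22, DESeq2 adjusted p 5.13e-06) at a baseMean of 114. Mmp16, a membrane-anchored MMP, fell by 0.76 on the log2 scale (SE 0.19, DESeq2 adjusted p 0.000801). Mmp21 was lower, at -1.22 (SE 0.45, DESeq2 adjusted p 0.0374) and a baseMean of 9.18. With the members included, 3 of the 4 TIMP genes rose.

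Genes that switch MMPs on or hold them back also went both ways. Of 15 listed, 13 were tested, 6 rose and 3 fell, and the median log2 fold change was 0.06. The shares over all genes tested were 11.3% higher and 9.92% lower. The rises were in the plasminogen activator system, which generates plasmin, an activator of MMP precursors, and in clearance. Plau, urokinase, rose by 1.41 (SE 0.19, DESeq2 adjusted p 1.89e-11) and its receptor Plaur by 1.60 (SE 0.26, DESeq2 adjusted p 4.12e-08). Lrp1, a receptor that takes up proteases bound to their inhibitors, rose by 0.96 (SE 0.16, DESeq2 adjusted p 1.01e-07), and Plat, the tissue-type activator, and Serpine2, an inhibitor of plasminogen activators, were among the others that were higher. Plg, plasminogen itself, stood at a baseMean of 0.200.

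The falls were in proprotein convertases, which trim precursors, and in Reck. Pcsk6 and Pcsk5 fell by 0.91 (SE 0.16) and by 0.76 (SE 0.19) on the log2 scale, with DESeq2 adjusted p-values of 2.5e-07 and 0.000505. Reck, a membrane-anchored inhibitor of MMPs, fell by 0.50 on the log2 scale (SE 0.14, DESeq2 adjusted p 0.00301). Furin, the convertase known to activate Mmp14, had 0.06 (SE 0.22, DESeq2 adjusted p 0.876).

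Transcripts of MMP substrates were mostly lower. All 19 listed matrix genes were tested, 12 were lower and 1 was higher in aged mice, and the median log2 fold change was -0.91. Over all genes tested, 9.92% passed as lower and 11.3% as higher. The fibrillar collagens Col1a1, Col3a1 and Col1a2 had log2 fold changes of -2.91 (SE 0.17), -2.14 (SE 0.13) and -1.80 (SE 0.15), with DESeq2 adjusted p-values of 1.31e-60, 1.22e-62 and 7.41e-31. Spp1, osteopontin, a matrix protein also made by macrophages, rose by 1.35 (SE 0.20, DESeq2 adjusted p 3.21e-10). Among chains of type IV collagen, Col4a3 and Col4a4 were lower and Col4a1 and Col4a2 did not pass the threshold. Eln, the elastin that Mmp12 cuts, was lower at -1.45 (SE 0.16, chosen after its value was seen). The summed worked-out mean of the 19 genes was 311884 normalized counts in young and 117031 in aged mice.

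**Figure D5:**
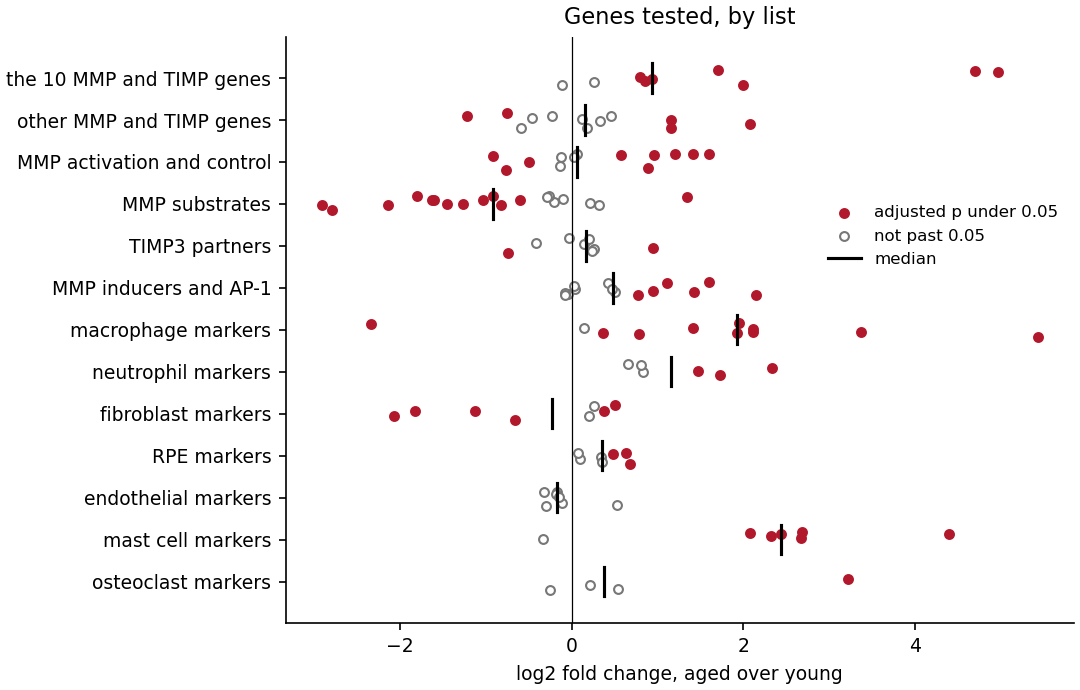
Log2 fold change, aged over young, of every tested gene by list, with filled points for an adjusted p under 0.05, open points for the rest and a bar at the median of the list. The 10 genes have a median of 0.93, the substrates one of -0.91, and macrophage and mast cell markers medians of 1.92 and 2.44.

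Marker lists of cell types that can make MMPs did not move alike. The shares to set beside the count of each marker list are 11.3% higher and 9.92% lower over all genes tested. Of 12 macrophage markers, 11 were tested, 9 rose and 1 fell. Their summed worked-out mean was 16539 normalized counts in young and 106881 in aged mice, and 0 of them stood at 0. Itgax, Cd68 and Adgre1 rose by 5.43 (SE 0.18), 3.37 (SE 0.14) and 2.12 (SE 0.16), whereas Cd163, a marker of resident macrophages, fell by 2.34 (SE 0.24). Lyz2, which supplies much of that sum, had no p-value, and without it the sum was 12265 in young and 34014 in aged mice. The part of macrophages in the rises of Mmp12, Mmp3, Mmp13 and Timp1 was not tested.

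Of 10 neutrophil markers, 6 were tested and 3 rose, S100a8 by 2.34 (SE 0.27), Csf3r by 1.73 (SE 0.24) and S100a9 by 1.47 (SE 0.31). Their sum was 212 in young and 614 in aged mice, and the granule genes Mpo and Elane and the surface marker Ly6g stood at 0, 0.348 and 0.296. The granule genes Camp and Ltf were present at baseMeans of 33.9 and 41.1, with log2 fold changes of 0.83 (SE 0.33) and 0.81 (SE 0.42) that did not pass the threshold. Of 7 mast cell markers, 6 rose, and their sum was 1211 in young and 2668 in aged mice. Kit, the most abundant of them, had a log2 fold change of -0.33 and did not pass the threshold, and without it the sum was 360.5 in young and 1992 in aged mice. The mast cell receptor and protease genes Fcer1a, Cma1 and Cpa3 rose by 4.40 (SE 0.37), 2.44 (SE 0.21) and 2.32 (SE 0.21). Of 6 osteoclast markers, 4 were tested and Acp5 rose, by 3.23 (SE 0.20). Ctsk, Calcr and Dcstamp did not pass the threshold, with log2 fold changes of 0.22 (SE 0.17), 0.54 (SE 0.46) and -0.26 (SE 0.44). Oscar and Ocstamp, at baseMeans of 3.32 and 3.72, had no adjusted p. The part of neutrophils, mast cells and osteoclasts in the values of Mmp8 and Mmp9 was not tested.

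Among resident cells, 4 of 8 fibroblast markers fell and 2 rose, and their sum was 56096 in young and 72302 in aged mice, with Dcn as its largest part and 20225 and 21313 without it. Clec3b, Pi16 and Dpt had log2 fold changes of -2.07 (SE 0.22), -1.13 (SE 0.16) and -1.82 (SE 0.27), and those that rose were Dcn, by 0.51 (SE 0.13), and Fbln1, by 0.38 (SE 0.12). Of 8 RPE markers, 7 were tested, 3 rose and 0 fell, and none was near 0. Rgr, Stra6 and Best1 rose by 0.63 (SE 0.18), 0.48 (SE 0.17) and 0.68 (SE 0.26). Of 8 endothelial markers, 7 were tested and 0 passed the threshold by DESeq2, against 2 (Plvap and Egfl7) at an unadjusted p under 0.05. Markers of the RPE and of endothelium were thus both present in tissue labelled RPE/choroid.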

How the data were processed

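RNA of 3 young and 3 aged RPE/choroid samples was sequenced by the authors as stranded, ribosomal RNA-depleted libraries. Per the study's methods, reads were trimmed with BBDuk, mapped with STAR to Ensembl GRCm38 transcripts, quantified with Sailfish at default settings, scaled by total count and compared by the authors with DESeq2. Sailfish divides reads that fit several transcripts by estimation. Which strand setting was used is not given in the sources used here. The authors deposited 1 table with 0 columns that name a sample. Its baseMean is a deposited normalized signal, its fold changes and SEs were deposited on the log2 scale, its Wald score was deposited as their quotient, and the p-values are those of the authors' DESeq2 run, as deposited. The direction of the fold change is not stated in the table. The reading used, young over aged, rests on which group the study describes as having more of the higher genes. The sign was reversed throughout, and every direction depends on this.

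Because the table has no counts, no test was refitted, and the deposited columns of the authors' comparison are described. A gene differs where the adjusted p is under 0.05. Of 33924 genes, 7243 had a baseMean of 0, 160 a fold change without a p-value, 7885 a p-value without an adjusted p (baseMean up to 7.07), and 18636 were tested. Recomputed Benjamini-Hochberg values differed from the deposited ones by at most 0.572%. The largest SE was 0.46, and the median SE was 0.24 for the 5064 genes with a baseMean under 2 but 0.43 for tested genes under 30. SEs that fall at the lowest counts are what shrinkage gives. Shrinkage is not stated, and where present it understates changes of low genes. The 95% intervals are the fold change plus and minus 1.96 SE. Errors and p-values come from the error model of DESeq2 fitted to these samples and are not a spread seen directly. Nothing in the labels ties samples to litters or batches.

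Group means were worked out as those that have the deposited mean and ratio with equal group sizes, and divided by the length of the principal coding transcript of GENCODE M21 (GRCm38). The baseMean rose weakly with that length (Spearman rho 0.25 over 11123 genes), which does not settle whether length had already been divided out. The levels per kb assume that it had not. The members and the 12 other gene lists were chosen with earlier results of these data known. Named are the members and, per list, the 3 genes with the lowest adjusted p in each direction, and listed genes without an adjusted p where needed. A gene of the list on activation and control is counted there but not reported here by itself. Outside this rule, Eln, Furin, Fos, Fosb, Fosl2, Jun, Jund, Adam17, Kdr, Kit, Camp, Ltf, Ctsk, Calcr and Dcstamp are given with values. Some further listed genes are given by name. All of these were chosen after their values were seen. Tmem123 and Syn3 are named as neighbours. Of 144 symbols, members included, 3 were matched by an older symbol (Adgre1, Dcstamp and Ocstamp). Alternatives were an adjusted p under 0.01, a log2 fold change of 1 or more in size, no filter on low genes, a baseMean of at least 100, and centring. Recalculation and centring were tested on simulated data. Python 3.11.15, pandas 2.3.3, scipy 1.17.1 and statsmodels 0.14.6 were used.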

Additional observations from a re-analysis of the deposited data

How the results depend on the processing

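No paired analysis was possible because single libraries have no values in the table. Leaving out each library, a replicate block, another tool and another normalization were not run for that reason. The count of 7 members, all higher, was the same under an adjusted p below 0.01, without a filter on low genes and after centring. With a baseMean of at least 100 the count was 6 of 7 tested, as that filter drops Mmp13 and Mmp9. With a p from the Wald score where none was given the count was 8, of which 7 were higher and 1, Mmp2, was lower. With a log2 fold change of 1 or more in size required it was 4, as Mmp14, Mmp19 and Timp2 were lost by construction. Of 5 calls among the other family genes, 3 passed an adjusted p under 0.01 and 2 a baseMean of at least 100. For activation and control, 3 were left by the fold-change minimum, against 9. Of the TIMP3 partners, 0 were left by the fold-change minimum and 1 by a baseMean of at least 100, against 2. The latter filter also left 2 of 6 inducers, as it drops low genes. No member changed direction under any alternative run. Centring subtracted 0.06 from each log2 fold change and moved the split of all calls from 2100 higher and 1849 lower to 1655 and 2289, with 7 members still higher. The Wald score, which was chosen after seeing the data, turned Mmp2 into a call, with an adjusted p of 0.00755. With the union of all annotated exons as length, also chosen after seeing the data, Mmp3 held 17.6% of the young and 80.9% of the aged MMP sum.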

Other observations

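Signals known to induce MMP genes were compared as well. Of 16 listed cytokines and transcription factors, 14 were tested, 6 rose in aged mice and 0 fell, and the median log2 fold change was 0.49. Over all genes tested, 11.3% passed as higher and 9.92% as lower. The cytokines Osm, Tnf and Il1b rose by 2.15 (SE 0.40), 1.60 (SE 0.36) and 1.43 (SE 0.33), with DESeq2 adjusted p-values of 2.11e-06, 0.000176 and 0.000189, at baseMeans of 22.7, 30.7 and 57.9. Il1a, Tgfb1 and the AP-1 subunit Junb were the others. At an unadjusted p under 0.05 by DESeq2, 9 genes of the list were higher and 0 were lower. The AP-1 subunits Jun, Jund and Fosl2 had 0.50 (SE 0.21), 0.47 (SE 0.19) and 0.43 (SE 0.20), with adjusted p-values of 0.0681, 0.0681 and 0.122 by DESeq2. Fos and Fosb had -0.05 (SE 0.45) and 0.04 (SE 0.39), and the SE of Fos leaves a change of moderate size undetected.

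Proteins that TIMP3 is known to inhibit or bind, apart from MMPs, were compared too. Of 8 genes tested, 2 passed the threshold, a share near the 21.2% of all genes. Adamts4, an aggrecan-cutting protease, rose by 0.95 (SE 0.26, DESeq2 adjusted p 0.00224), and the related Adamts5 fell by 0.75 on the log2 scale (SE 0.15, DESeq2 adjusted p 2.51e-05). Adam17, the protease that sheds Tnf from the cell surface, had 0.24 (SE 0.12, DESeq2 adjusted p 0.155). Kdr, the receptor for vascular endothelial growth factor to which TIMP3 binds, had 0.14 (SE 0.16, DESeq2 adjusted p 0.575).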
